A study of Mus musculus with 6 samples.

Results

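The genes described here are 10 that carry bile components out of the mouse hepatocyte or supply them for export, Abcb11, Abcb4, Atp8b1, Pctp, Abcg5, Abcg8, Abcc2, Abcg2, Abcc3 and Abcc4. They were listed by name, and their probe sets are those to which GEO's platform annotation gives exactly 1 symbol among these 10; no measured value enters this rule, but the list was drawn up with earlier results of these data known. This gave 11 probe sets, 2 for Pctp and 1 for each other gene, and the probe set with the highest mean over the 6 arrays stood for its gene. All 10 passed the filter on dim probe sets, a mean log2 signal above 5.63, and are 10 of the 12705 genes tested. Liver RNA was hybridised to Affymetrix MG 430 2.0 arrays, 1 array per mouse, in 2 groups of 3. The Tg livers (Tg 5, Tg 6, Tg 7) carried a transgene for Retnla, and the non-Tg livers (non-Tg 1, 2 and 3) lacked it. Both groups were male, of C57BL6/J background, aged 3 months, and ate a high-fat diet with 21% fat and 0.15% cholesterol for 4 weeks from 8 weeks of age. The product of Retnla, resistin-like molecule alpha, is secreted. Not given in the sources used here are the promoter or cell type that drives the transgene and the number of founder lines.

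The transgene check fitted the labels, with a Retnla log2 signal of 16.04, 15.91 and 16.04 in the Tg livers against 6.03, 7.41 and 6.48 in the non-Tg livers. Of 10 hepatocyte markers 9 were measured, and their summed antilogged signal ran from 613642 to 657623 in Tg and from 596946 to 625043 in non-Tg livers. The sum follows the brightest markers. Singly, 5 were higher and 4 lower in Tg livers with none passing. Tat had the smallest p, at a log2 difference of 1.12 (limma adjusted p = 0.468). The summed signal of 3 measured erythroid markers of 8 listed ran from 4469 to 6316 in Tg and from 3342 to 3862 in non-Tg livers, without overlap. Singly, all 3 had a higher mean in Tg livers with none passing. The groups did not overlap for Hbb-b2 and Alas2, as for 6.04% of all genes on the higher side, and overlapped for Slc4a1. All 8 macrophage markers had a higher mean in Tg livers, where 47.9% of all genes were lower. Each of them overlapped between the groups, and none passed. Their sum ran from 16511 to 42259 in Tg and from 20734 to 23849 in non-Tg livers. It was highest in Tg 6, and in Tg 7 it lay below every non-Tg liver. For 8 endothelial markers the sum ran from 10302 to 12897 in Tg and from 10899 to 11633 in non-Tg livers. The 6 arrays fell into 2 sets by bioC, a bacterial control transcript added at hybridization. Its log2 signal was 9.57, 9.71 and 9.68 on Tg 5, Tg 6 and non-Tg 1, and 11.07, 11.27 and 10.98 on Tg 7, non-Tg 2 and non-Tg 3. What sets these arrays apart is not labelled, so values within each set are given beside the results.

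Bile forms at the canaliculus, the narrow space enclosed by the apical membranes of neighbouring hepatocytes, where ATP-driven transporters load it against steep gradients. Bile salts pumped out by Abcb11 draw phosphatidylcholine from the outer leaflet, where Abcb4 places it, into mixed micelles, and these take up the cholesterol released by Abcg5 and Abcg8. Abcc2 and Abcg2 export conjugated organic anions across the same membrane. Abcc3 and Abcc4 sit in the basolateral membrane and return anions and bile salts to the blood, a route best known from cholestasis. The bile acid receptor FXR controls Abcb11 and, in human hepatocytes, ABCB4, and the oxysterol receptor LXR controls Abcg5 and Abcg8.

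Promoter windows of 250 bases before to 50 bases after the RefSeq start (build GRCm38.p6) were matched by symbol for 8 of the 10 genes, 12 windows in all, and Abcc3 and Atp8b1 had no entry. Of these, 3 windows are shown, 5′ to 3′ on the strand of the named gene. The Abcb11 window, at chr2:69342567-69342866 on the minus strand, is shown because the bile salt pump is a textbook FXR target, and its capitals mark a match to an inverted repeat of the kind FXR binds, the half-sites AGGNCA and TGACCT with 1 base between them. The Abcg8 window, at chr17:84682871-84683170 on the plus strand, is shown because it holds the starts of both sterol transporter genes, which varied together. Its capitals mark the letters AGATAA, the core that GATA factors bind, on either strand. They also mark a TATA box, searched as TATAAA in the same way. It appears as TTTATA in the printed window, so TATAAA itself reads on the opposite strand, that of Abcg5. The Pctp window, at chr11:90002845-90003144 on the minus strand, is shown because Pctp had the smallest p of the 10 genes, and its capitals mark the GC box GGGCGG on either strand.
Abcb11: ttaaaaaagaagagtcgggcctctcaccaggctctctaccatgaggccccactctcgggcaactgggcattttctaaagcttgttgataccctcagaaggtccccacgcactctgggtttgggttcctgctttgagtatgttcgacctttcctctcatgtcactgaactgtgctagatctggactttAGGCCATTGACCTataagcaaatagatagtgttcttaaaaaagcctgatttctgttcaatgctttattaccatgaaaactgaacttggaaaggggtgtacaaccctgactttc
Abcg8: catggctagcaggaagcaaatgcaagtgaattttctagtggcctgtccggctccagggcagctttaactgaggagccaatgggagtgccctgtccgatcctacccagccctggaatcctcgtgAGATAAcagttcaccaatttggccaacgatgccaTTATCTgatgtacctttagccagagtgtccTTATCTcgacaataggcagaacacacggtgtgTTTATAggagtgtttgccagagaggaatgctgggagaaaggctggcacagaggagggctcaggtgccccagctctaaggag
Pctp: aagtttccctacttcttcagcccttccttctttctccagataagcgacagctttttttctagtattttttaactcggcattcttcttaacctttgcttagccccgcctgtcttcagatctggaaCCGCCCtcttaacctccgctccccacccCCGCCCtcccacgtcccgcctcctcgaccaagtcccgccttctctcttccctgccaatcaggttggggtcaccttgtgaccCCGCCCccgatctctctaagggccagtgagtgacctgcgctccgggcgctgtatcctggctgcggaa

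The Abcb11 match began at base 188 of the window, with the gene's start at base 251, and 1 of the 12 windows held it. Over all 32851 promoter windows of the RefSeq table, 12 held this inverted repeat on either strand, or 0.0365%. That share is for these exact letters, with the second half-site fixed, and does not measure how often FXR-type repeats occur. Abcg5 and Abcg8 are neighbours that run in opposite directions, and the Abcg5 start lies 110 bases from the nearer of 2 Abcg8 starts in the RefSeq table. These starts are at bases 141 and 251 of the printed window, and the other Abcg8 start lies outside it. The printed window held 3 GATA boxes and 1 TATA box, and 3 of these 4 matches lay between the 2 starts. Of all windows 11.2% held a GATA box and 13.6% a TATA box. The Pctp window held 3 GC boxes, which 35.7% of all windows hold. The NRF2-type core TGACNNNGC was searched too, on both strands, and 4 of the 12 windows held it, those of Abcc2 and Pctp and both of Abcc4, against 12.4% of all windows; the Pctp match overlaps a GC box. A match is a run of letters and shows no binding.

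No exporter gene passed the test between Tg and non-Tg livers. With limma, 0 of the 10 had an adjusted p under 0.05 in either direction, where 2 of 12705 genes (0.0157%) passed, both of them higher in Tg livers. At an unadjusted limma p under 0.05 there were 3, Pctp, Abcc3 and Atp8b1, all lower in Tg livers, against 3.12% of all genes on that side and 6.05% in either direction. The groups did not overlap for 2 genes on the lower side, Pctp and Atp8b1, and for 1 on the higher side, Abcb4, against 5.64% and 6.04% of all genes. By cargo, the bile salt pump Abcb11 and the canalicular anion exporters Abcc2 and Abcg2 lay within 0.03 of 0 on the log2 scale. Both sterol transporters, both lower phospholipid genes and Abcc3 lay between -0.65 and -0.35, and Abcb4 and Abcc4 lay above 0. In all, 8 of 10 were lower in Tg livers (6 after quantile normalization, where Abcb11 and Abcc2 turned just above 0), where 47.9% of all genes were, and the median difference was -0.19, against 0.01 over all genes. These are bulk samples, in which fewer cells of a type and less RNA per cell cannot be told apart.

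**Figure D1:**
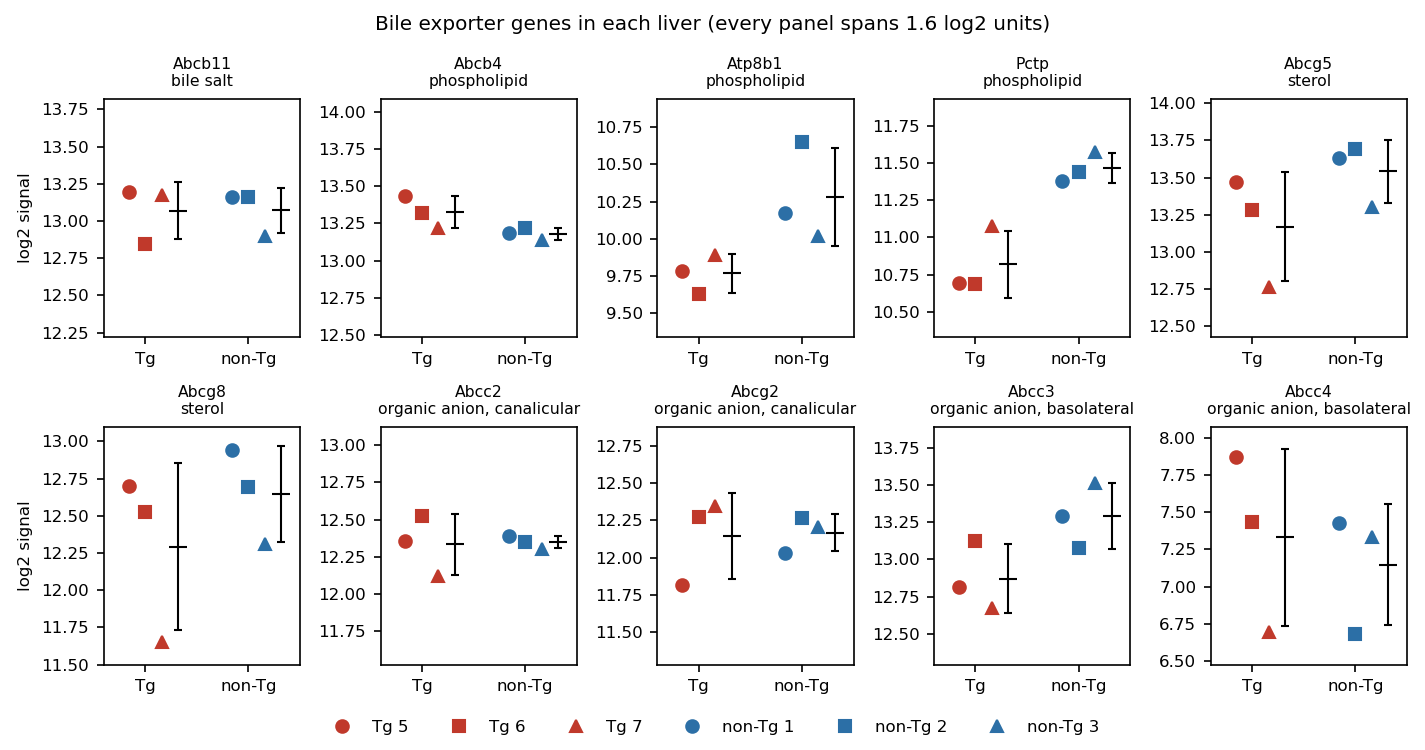
Log2 signal of each exporter gene (vertical axis, every panel spanning the same width) in the 3 Tg and 3 non-Tg livers, with the mean and SD of each group beside the points; symbols only name mice and pair none. The groups are apart in the panels of Abcb4, Atp8b1 and Pctp and overlap in the other 7, and Tg 7 is the lowest liver for Abcg5 and Abcg8.

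**Figure D2:**
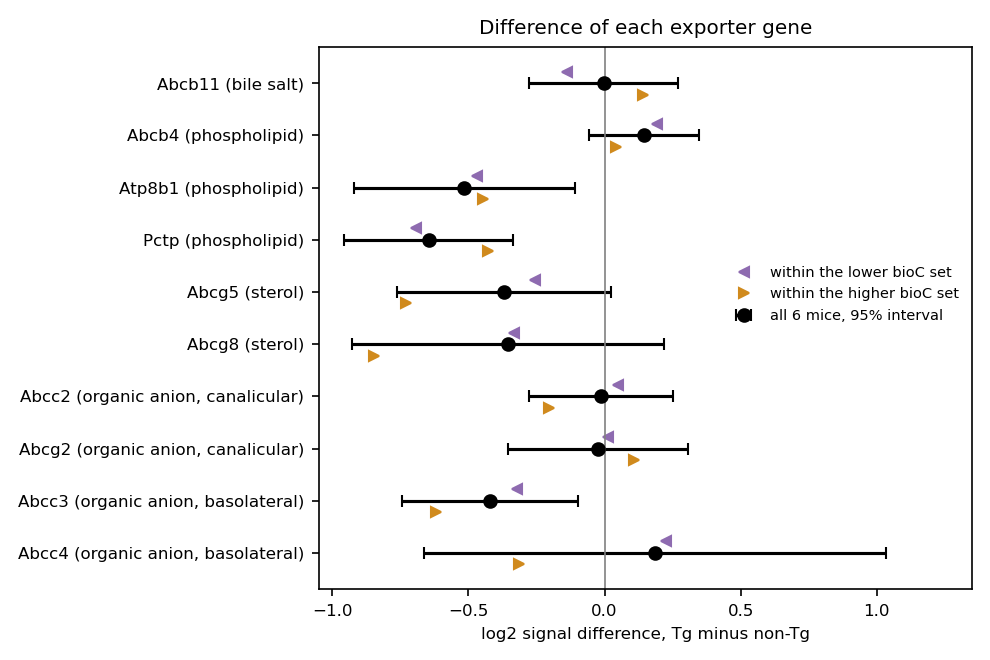
Difference in log2 signal, Tg minus non-Tg (horizontal axis), for each exporter gene, with its 95% interval from limma, and the difference within each set of arrays defined by the bioC control. Pctp, Atp8b1 and Abcc3 have intervals below 0, none of them adjusted for the number of genes, and Abcc4 has the widest interval.

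Abcb11, the bile salt export pump and the main driver of bile flow, had a log2 signal of 13.19, 12.85 and 13.17 in Tg livers against 13.16, 13.16 and 12.90 in non-Tg livers. Each group held 2 livers near 13.2 and 1 near 12.9. The difference was -0.00 ± 0.12 (SE), a ratio of Tg to non-Tg signal of 0.998 with a 95% interval from 0.825 to 1.21 (limma adjusted p = 0.999). With 3 mice per group, ratios inside this interval stay compatible with the data. It is not a limit of detection, since larger differences, such as that of Pctp, did not pass either. Within the lower and the higher bioC set Abcb11 differed by -0.14 and 0.14.

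The phospholipid genes leaned different ways, none past the threshold: Abcb4 was slightly higher in Tg livers while Atp8b1 and Pctp were lower. Abcb4, the floppase that turns phosphatidylcholine to the outer leaflet, had a log2 signal of 13.43, 13.32 and 13.22 in Tg livers against 13.19, 13.22 and 13.14 in non-Tg livers. All Tg livers lay above all non-Tg livers, but Tg 7 exceeded non-Tg 2 only in the third decimal (13.2197 against 13.2184). The Abcb4 difference was 0.14 ± 0.09 (SE), a ratio of 1.10 (95% interval 0.960 to 1.27; limma adjusted p = 0.826). Within the lower and the higher bioC set Abcb4 differed by 0.19 and 0.04.

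Atp8b1 is a P4-ATPase that moves phospholipids from the outer to the inner leaflet and so keeps the canalicular membrane resistant to bile salts. Loss of the human gene causes a familial cholestasis. The Atp8b1 log2 signal was 9.79, 9.63 and 9.89 in Tg livers against 10.17, 10.65 and 10.02 in non-Tg livers. The groups did not overlap, and non-Tg 2 stood highest. Atp8b1 differed by -0.51 ± 0.18 (SE), a ratio of 0.700 (95% interval 0.528 to 0.928; limma adjusted p = 0.787). Without non-Tg 2 the Atp8b1 difference was -0.33. It was -0.47 and -0.45 within the lower and the higher bioC set, with a single non-Tg liver in the lower set and a single Tg liver in the higher. The value in the higher set leaned on non-Tg 2, at 10.65 against 10.02 in non-Tg 3 and 9.89 in Tg 7.

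Pctp, also called StarD2, is a soluble protein that binds a phosphatidylcholine molecule and carries it between membranes inside the cell. On the probe set that stands for the gene its log2 signal was 10.69, 10.69 and 11.08 in Tg livers against 11.38, 11.44 and 11.57 in non-Tg livers. The groups did not overlap, and Tg 7 was the Tg liver nearest to the non-Tg livers. Pctp differed by -0.65 ± 0.14 (SE), a ratio of 0.639 (95% interval 0.516 to 0.793), and its limma p was 0.000996 before and 0.468 after adjustment. The exact 2-sided permutation p was 0.1 for Pctp, Atp8b1 and Abcb4, the smallest that 3 mice against 3 allow. Within the lower and the higher bioC set Pctp differed by -0.69 and -0.43. The second Pctp probe set gave 10.57, 10.58 and 10.62 in Tg livers against 11.04, 10.45 and 10.74 in non-Tg livers. There the groups overlapped, and the difference was -0.15 ± 0.15 (SE), so the probe sets agreed in sign and not in size. With the mean of both probe sets Pctp differed by -0.40 (limma adjusted p = 0.797).

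The sterol transporter genes leaned lower in Tg livers, and Tg 7 stood apart. Abcg5 and Abcg8 encode the parts of an obligate heterodimer that puts cholesterol and plant sterols into bile. Abcg5 had a log2 signal of 13.47, 13.28 and 12.76 in Tg livers against 13.63, 13.69 and 13.30 in non-Tg livers. Abcg8 had 12.70, 12.52 and 11.65 in Tg livers against 12.94, 12.69 and 12.31 in non-Tg livers. The groups overlapped for both genes, and Tg 7 was the lowest liver for both. Abcg5 differed by -0.37 ± 0.18 (SE), a ratio of 0.774 (95% interval 0.589 to 1.02; limma adjusted p = 0.807). Abcg8 differed by -0.35 ± 0.26 (SE), a ratio of 0.782 (95% interval 0.525 to 1.16; limma adjusted p = 0.838). Without Tg 7 the differences were -0.17 for Abcg5 and -0.03 for Abcg8. Within the lower bioC set, which lacks Tg 7, they were -0.26 and -0.33, and within the higher set, where Tg 7 is the Tg liver, -0.73 and -0.85.

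Abcg5 and Abcg8 varied together from mouse to mouse. Pearson's r of their log2 signals over the 6 livers was 0.949 (exact permutation p = 0.0222) and Spearman's rho was 0.771 (exact permutation p = 0.103). Both permutations treat the livers as exchangeable across groups and bioC sets. No other pair of genes was tested. Without the 2 livers farthest from the Abcg5 median, Tg 7 and non-Tg 2, r was 0.928. Each bioC set holds 3 arrays, too few for a value of r of its own. Over deviations from the group means, r was 0.959. Among the other 12704 genes Abcg8 ranked 30 by its r with Abcg5, within the top 0.236%. The 3 genes most like Abcg5 over the 6 arrays were Ndn (r = 0.995), Mustn1 (0.992) and Pop1 (0.986). With 6 arrays and this many genes, such values are common, and they are descriptions only.

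**Figure D3:**
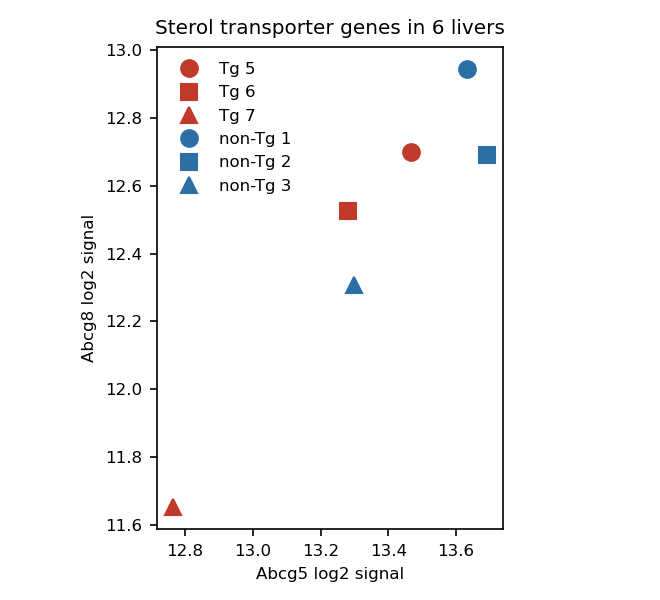
Abcg8 log2 signal (vertical axis) against Abcg5 log2 signal (horizontal axis), with 1 point per liver and equal scales. The livers line up from Tg 7 at the lower left to the non-Tg livers 1 and 2 at the upper right, with r of 0.949 over 6 livers.

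The canalicular anion exporters showed no difference that 3 mice per group could resolve. Abcc2, also called Mrp2, exports bilirubin glucuronides and glutathione conjugates, and had a log2 signal of 12.35, 12.53 and 12.12 in Tg livers against 12.39, 12.35 and 12.31 in non-Tg livers. The non-Tg livers lay inside the range of the Tg livers. Abcc2 differed by -0.01 ± 0.12 (SE), a ratio of 0.991 (95% interval 0.825 to 1.19; limma adjusted p = 0.988), and by 0.05 and -0.21 within the lower and the higher bioC set. Abcg2, the breast cancer resistance protein, exports sulfated conjugates and urate and is also made by erythroid cells. Its log2 signal was 11.81, 12.27 and 12.34 in Tg livers against 12.03, 12.27 and 12.21 in non-Tg livers, a range again wider in the Tg group. Abcg2 differed by -0.02 ± 0.15 (SE), a ratio of 0.983 (95% interval 0.782 to 1.24; limma adjusted p = 0.982), while the summed erythroid signal was higher in all 3 Tg livers. Within the lower and the higher bioC set Abcg2 differed by 0.01 and 0.11. Abcg2 was lowest in Tg 5, the liver with the highest erythroid sum, and an erythroid part in its signal was not tested. That sum is mostly Alas2, at 12.47 in Tg 5 against 8.76 for Hbb-b2 and 7.67 for Slc4a1 on the log2 scale.

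The basolateral exporters differed in how they leaned. Abcc3, or Mrp3, which sends glucuronides and bile salts back to the blood, had a log2 signal of 12.81, 13.13 and 12.67 in Tg livers against 13.29, 13.07 and 13.51 in non-Tg livers. Only Tg 6 reached into the non-Tg range, by exceeding non-Tg 2. Abcc3 differed by -0.42 ± 0.14 (SE), a ratio of 0.747 (95% interval 0.597 to 0.934; limma adjusted p = 0.779; exact permutation p = 0.2). Within the lower and the higher bioC set it differed by -0.32 and -0.62. Bile duct cells make Abcc3 too. Of 14 bile duct markers listed, 8 were measured, 6 lower and 2 higher with none passing, at a median of -0.34. Their summed signal ran from 4132 to 4653 in Tg and from 3624 to 5742 in non-Tg livers. That sum is mostly Aqp1, at 11.58 in Tg 5 against 10.28 for Slc4a2 on the log2 scale. Krt19, Krt7, Sox9, Sctr and Tspan8 were dim, with group means from 5.48 to 6.43 against a filter of 5.63. The median includes these dim markers, and Cftr, Cldn4 and Muc1 lay below the filter. The part of bile duct cells in the Abcc3 difference was not tested.

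Abcc4, or Mrp4, exports bile salts together with glutathione, and cyclic nucleotides. Its probe set was dim, with a log2 signal of 7.87, 7.43 and 6.69 in Tg livers against 7.43, 6.68 and 7.33 in non-Tg livers, not far above the array medians of 6.49 to 6.74. The groups overlapped almost fully. Abcc4 differed by 0.19 ± 0.38 (SE), a ratio of 1.14 with a wide 95% interval from 0.632 to 2.05 (limma adjusted p = 0.941). Within the lower and the higher bioC set the difference was 0.23 and -0.31.

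The spread of the exporters between mice of a group was set beside that of all genes, which were not matched to them in signal. The median SD within groups was 0.22 on the log2 scale over the 10 genes, against 0.27 over all genes. Abcb4 was the steadiest, with an SD of 0.08 and all 6 livers within a 1.23-fold range, while Abcg8 spanned 2.45-fold and Abcc4 2.28-fold. Apart from Abcg5 with Abcg8, the correlations over the 6 arrays, among 45 pairs, ran from -0.90 for Abcb4 with Pctp to 0.75 for Abcg8 with Abcc2, and are descriptions of arrays that share a group difference. The genes most like Abcb11 were Kcnq1, Prkab1 and Septin8 (r from 0.986 to 0.992), and those most like Pctp were Atp5a1, Fbxo22 and Psmb3 (r from 0.988 to 0.997).

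**Figure D4:**
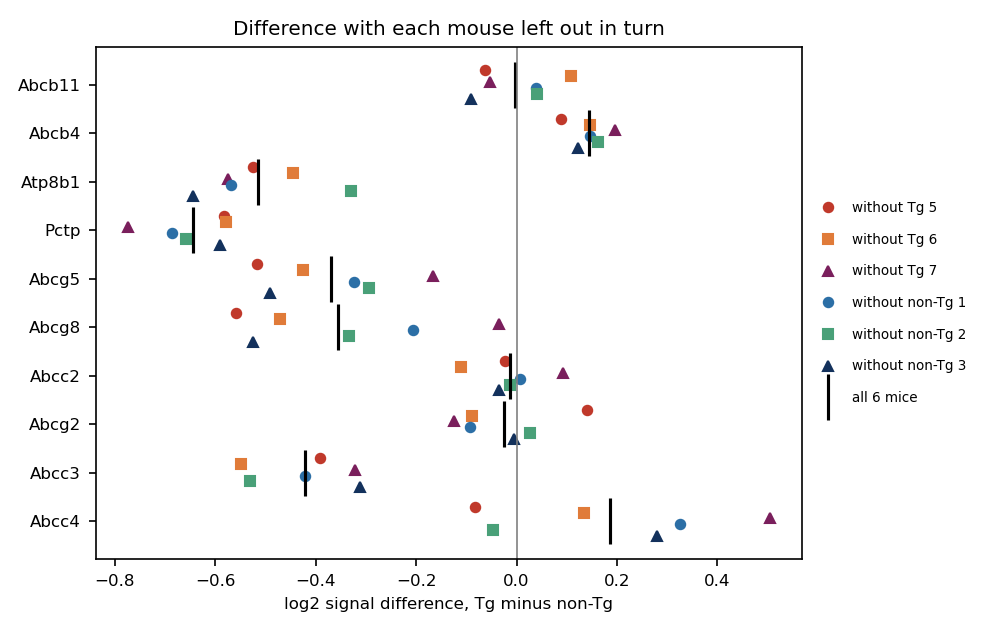
Difference in log2 signal, Tg minus non-Tg (horizontal axis), for each exporter gene with all 6 mice (bar) and with each mouse left out in turn (symbols). Pctp, Atp8b1, Abcc3, Abcg5 and Abcg8 stay below 0 and Abcb4 above 0 for every mouse left out, with Abcg8 at -0.03 without Tg 7, while Abcb11, Abcc2, Abcg2 and Abcc4 fall on both sides.

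With the bioC sets as a block in the limma fit, the same 5 genes were the lowest in Tg livers relative to non-Tg livers. Pctp stood at -0.56, Abcg8 at -0.59, Abcg5 at -0.49, Abcc3 at -0.47 and Atp8b1 at -0.46, with limma adjusted p from 0.405 to 0.841. All 5 had an unadjusted limma p under 0.05 in that fit, as did 5.67% of all genes, 2.98% on the lower side, and 0 of 10 exporters passed after adjustment, against 0.0315% of all genes.

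The other genes of the pathway did not pass either. Of 17 genes of uptake and other export 14 were measured, 3 higher and 11 lower in Tg livers, with 0 past the limma threshold in each direction and a median of -0.08. Those with the smallest p on each side were Abcc5, a nucleotide analogue and anion exporter, at 0.35, and Abca1, which loads cholesterol onto lipoproteins, at -0.17, with limma adjusted p of 0.826 and 0.820. The other kept Abca1 probe sets gave 0.02 and -0.01, and the other kept Abcc5 probe sets 0.31, 1.13 and 1.69. Those at 1.13 and 1.69 were dim, with Tg means of 6.43 and 6.69. Their non-Tg means, 5.30 and 4.99, lay below the filter of 5.63. Of 16 partners and parts of the apical machinery 15 were measured, 3 higher and 12 lower, with 0 passing and a median of -0.09. Here the kinase Prkcd stood at 0.26 and the tight junction protein Cldn1 at -0.82, with limma adjusted p of 0.841 and 0.797. The other kept Cldn1 probe set gave -0.23. The direct partners of the lower phospholipid genes, chosen for naming after their values were seen, were Tmem30a, the subunit that Atp8b1 needs to leave the endoplasmic reticulum, at -0.18 ± 0.10 (SE), and Acot13, a thioesterase that binds Pctp, at -0.21 ± 0.11 (SE). The limma adjusted p was 0.820 for each, and the other kept Tmem30a probe sets ran from -0.37 to 0.07.

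All 14 genes of phosphatidylcholine supply were measured, 6 higher and 8 lower, with 0 passing and a median of -0.02. Pcyt2, of phosphatidylethanolamine synthesis, stood at 0.21 and the choline kinase Chkb at -0.25, with limma adjusted p of 0.820 and 0.807. Of 19 regulators 17 were measured, 5 higher and 12 lower, with 0 passing and a median of -0.08. Nr1h3, the receptor LXR alpha, stood at 0.30 and Nr5a2, the receptor LRH-1, at -0.55, with limma adjusted p of 0.787 and 0.735. The other kept Nr5a2 probe sets gave -0.02 and 0.03. Nr1h4, the receptor FXR, named for the motif shown above and chosen after its values were seen, stood at -0.01 ± 0.15 (SE; limma adjusted p = 0.994). The lower share in these 4 lists stands beside 47.9% of all genes lower in Tg livers.

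**Figure D5:**
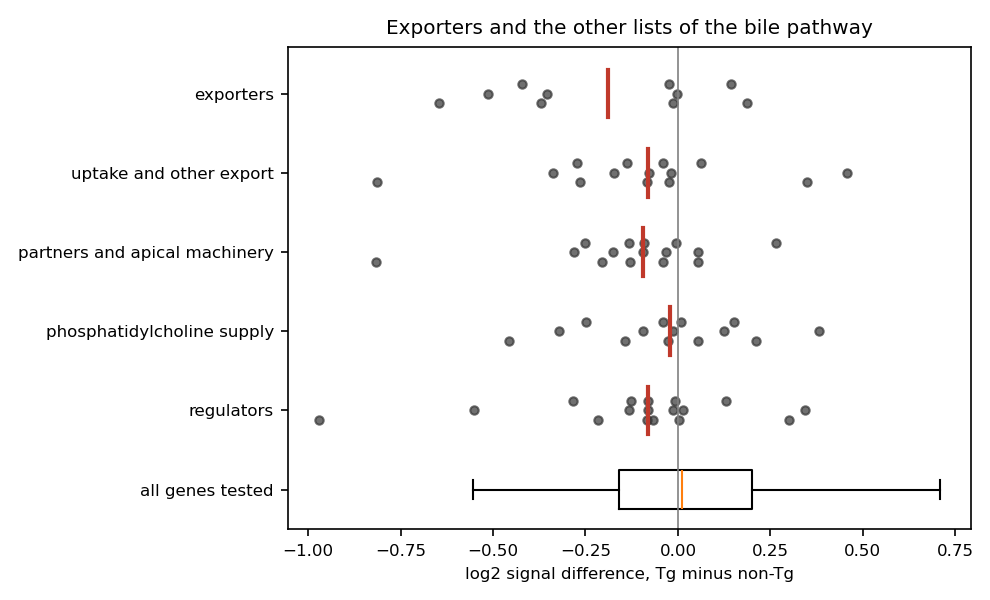
Difference in log2 signal, Tg minus non-Tg (horizontal axis), for the 10 exporters and 4 other lists of the bile pathway, with 1 point per gene and a bar at each median; for all 12705 genes a box shows the quartiles and whiskers the middle 90%. The exporters have a median of -0.19 and the other lists medians between -0.09 and -0.02.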

How the data were processed

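Per the submitters' processing notes the arrays were processed with GCOS, the Affymetrix array software; not given in the sources used here are its version, algorithm and scaling target. The authors deposited a table of log2 signals with 45101 probe sets and 1 column per array. Antilogged, these have a mean of 500.0 on every array after trimming 2% from both tails, so arrays were scaled alike. Neither scanner files nor detection calls were used. Precision is limited by the number of arrays. Per the labels' protocols, labelling of cRNA started from 5 µg of total RNA.

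After 64 control probe sets were set aside, 34945 had 1 symbol, 932 several and 9160 none. Probe sets with a mean above the 40th percentile were kept, and the highest-mean probe set stood for each of 12705 genes. The groups were tested in R 4.3.3 with limma 3.58.1 and statmod 1.5.0 (lmFit, eBayes with intensity trend, 2-sided, Benjamini-Hochberg over all genes, threshold 0.05). SEs and 95% intervals are those of that fit. Exact permutation tests used scipy 1.17.1, over the 20 assignments of mice to groups for a difference and over all orderings of the 6 livers for a correlation, and figures matplotlib 3.10.9. The fit was tested on simulated data with added differences larger than that of any exporter. That test does not bear on differences of the size seen here.

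The members and lists were chosen with earlier results of these data known. Text names the 10 members and the smallest-p gene on each side of each of the 4 pathway lists. It also names the 3 genes most correlated with Abcg5, Abcb11 and Pctp. Tmem30a, Acot13, Nr1h4 and the markers Tat, Alas2, Hbb-b2, Slc4a1, Aqp1, Slc4a2, Krt19, Krt7, Sox9, Sctr and Tspan8 were added after their values were seen. Alternatives changed the constant before the log, filter, normalization, moderation, array weights, probe set rule, array set block and mice.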

Additional observations from a re-analysis of the deposited data

How the results depend on the processing

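No exporter passed the limma threshold under any of the 17 alternatives, which left 6 to 8 of 10 lower in Tg livers, with medians from -0.27 to -0.09. Leaving out each mouse in turn, the median ran from -0.27 to -0.09, the count of lower exporters from 6 to 8 and the number of genes passing from 2 to 3. The number of genes passing was 2, and became 4 with 16 and 6 with 64 added before the log, 5 after centring on the array median, 4 with robust variance and 4 with the bioC array set as a block; the cause was not tested. The directions of Pctp, Atp8b1, Abcc3, Abcg5, Abcg8 and Abcb4 held under all of these. The other 4 changed sign. Abcb11 became 0.0305 with quantile normalization and 0.00110 with the block, and ran from -0.0900 to 0.108 over the mice left out. Abcc2 became 0.0259 with quantile normalization and 0.0267 with array weights, and ran from -0.110 to 0.0926. Abcg2 became 0.0610 with the block and ran from -0.125 to 0.141. Abcc4 became -0.0432 with the block and ran from -0.0820 to 0.505. No paired analysis was possible because the groups share no replicate numbers. Centring on the array median moved the median of all genes to -0.06. The dim Abcc4 signal limits its precision.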
